A study of Mus musculus with 2 samples.

Results

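Hox genes encode homeodomain transcription factors that give the cells of the embryo their position along the head-to-tail axis. Here they are the 39 genes, of 33456 listed, whose symbol is Hoxa, Hoxb, Hoxc or Hoxd followed by a number: 11 in the Hoxa cluster on chromosome 6, 10 in Hoxb on chromosome 11, 9 in Hoxc on chromosome 15 and 9 in Hoxd on chromosome 2. They were chosen by name alone. They were measured by droplet single-cell RNA sequencing in 2 mouse libraries, both of the strain C57BL/6 with no allele or agent named beyond the culture itself, and both from cells that were frozen, thawed, sorted for live cells and run on the 10x Genomics Chromium system. The EB library held embryoid bodies at day 4, aggregates of embryonic stem cells differentiating in serum under conditions labelled as favouring hemangiogenic mesoderm, the mesoderm of blood and vessels. The stem cells had been kept on mouse embryo fibroblast feeders and then without feeders. The YS library held yolk sac cells from equal numbers of E9.5 and E10.5 embryos, pooled so that the stages cannot be told apart, with about 70% of the Ter119+ red cells sorted out. There was 1 library of each kind, so no p-value is given, and differences between cultures or litters were not measured.

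After filters on depth and mitochondrial share, 1878 EB cells with a median of 25547 UMIs (molecular barcodes, by which every captured transcript is counted once) and 775 YS cells with a median of 28461 UMIs were kept. Totals per cell ran from 6233 to 99304 UMIs in EB and from 6557 to 114332 in YS. Levels are CPM, the UMIs of a gene summed over a group of cells per 1000000 UMIs of all genes in those cells, and they are not divided by gene length because each UMI stands for 1 transcript. Every interval is a 95% interval (exact Poisson for levels, Clopper-Pearson for shares of cells, conditional binomial for ratios) and covers counting error only. Free RNA was low, with a mean UMI count in empty droplets of 0.987% of that of the median EB cell and 0.191% for YS, and 2 barcodes occurred in both sets of cells.

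In mammals the 4 Hox clusters arose by duplication of one ancestral cluster, and genes with the same number in different clusters are paralogs. Within a cluster the low numbers (anterior genes) are switched on first and reach furthest towards the head, and the high numbers (posterior genes) follow later and act nearer the tail, an order known as collinearity. Retinoic acid and the caudal factors of the Cdx family drive early Hox expression in the primitive streak and the mesoderm that leaves it, Polycomb and trithorax complexes hold the clusters silent or active, and HOX proteins bind DNA together with PBX and MEIS proteins. Hox genes of the middle and posterior groups are also known from blood progenitors. In this text paralogs 1 to 3 are called anterior, 4 to 8 central and 9 to 13 posterior.

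Promoters of a gene that led the EB library and of a gene that was high in the YS endothelial-like cells show the kinds of sequence at which these regulators act. The 250 bases before the RefSeq start site (build GRCm38.p6, plus strand) are given, at chr11:96365508-96365757 for Hoxb1 and chr11:96281655-96281904 for Hoxb8. Capitals mark matches on either strand to a caudal motif (TTTATG), a PBX-HOX motif (TGATNNAT), the CCAAT box (CCAAT) and the TATA box (TATAAA).
Hoxb1: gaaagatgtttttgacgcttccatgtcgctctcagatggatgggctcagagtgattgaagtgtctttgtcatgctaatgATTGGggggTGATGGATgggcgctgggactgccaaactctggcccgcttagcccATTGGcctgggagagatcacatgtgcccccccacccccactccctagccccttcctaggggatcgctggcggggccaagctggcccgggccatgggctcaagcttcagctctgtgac
Hoxb8: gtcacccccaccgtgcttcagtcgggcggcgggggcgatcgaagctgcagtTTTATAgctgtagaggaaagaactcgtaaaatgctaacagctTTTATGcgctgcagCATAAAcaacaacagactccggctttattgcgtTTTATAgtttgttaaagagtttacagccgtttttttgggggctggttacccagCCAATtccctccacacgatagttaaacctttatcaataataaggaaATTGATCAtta
The Hoxb1 window held the PBX-HOX match TGATGGAT, starting 162 bases before the start site, between CCAAT matches at 171 and 117 bases. The Hoxb8 window held a caudal match on each strand, at 157 and 143 bases, TATA matches at 199 and 110, a CCAAT match at 57 and a PBX-HOX match at 11, and the PBX-HOX match overlaps none of the others. Of the 39 Hox genes 22 had a promoter in the RefSeq table, with 24 promoters in all. The caudal motif was in 5 of these 24 and in 10.8% of 32851 promoters of all genes, and the PBX-HOX motif in 4 of 24 and in 7.68%. The CCAAT box was in 14 of 24 Hox promoters and in 33.8% of all promoters, and the TATA box in 4 of 24 and in 12.4%. A match is a description of these letters and not a binding site that was measured.

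The member with the most UMIs of all, Hoxc8 in YS, is also a known target of the microRNA miR-196, whose genes lie inside the Hox clusters. The mature miR-196a-5p is encoded at chr11:96265187-96265208 and again at chr15:102973365-102973386, both on the plus strand (GRCm38.p6). Its seed, bases 2 to 8, is in capitals below, as are the 7 bases that match it in 2 stretches of the Hoxc8 3′ UTR (GRCm38, plus strand).
miR-196a-5p: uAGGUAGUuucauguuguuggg
Hoxc8 at chr15:102992976-102992997: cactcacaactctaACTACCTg
Hoxc8 at chr15:102993733-102993754: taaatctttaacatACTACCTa
The 7 letters ACTACCT occurred in the 3′ UTRs of 9 of the 39 Hox genes (among them Hoxa5, Hoxa7, Hoxa9, Hoxb1, Hoxb6, Hoxb7 and Hoxc8) and in 7.73% of the 21131 genes that have an annotated 3′ UTR. Mature microRNAs carry no poly(A) tail and were not measured here.

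Summed over all members, Hox transcripts stood at 53.1 CPM (51.1 to 55.1, 2690 UMIs) in EB cells and at 195.6 CPM (190.0 to 201.2, 4730 UMIs) in YS cells, a YS level 3.69 times that of EB (3.51 to 3.87). The make-up differed more than the sum. In EB the Hoxb cluster held 72.2% of Hox UMIs, Hoxd 15.9%, Hoxa 10.0% and Hoxc 1.90%, while in YS Hoxc held 64.3%, Hoxb 26.4%, Hoxa 7.59% and Hoxd 1.75%. The Hoxc cluster was at 1.01 CPM in EB and 125.7 CPM in YS, a ratio of 125 (94.8 to 168), and Hoxd was the 1 cluster that was lower in YS, at 8.42 CPM in EB and 3.43 in YS (EB over YS 2.45, 1.94 to 3.14). Hoxb differed least, at 38.3 CPM in EB and 51.6 in YS. These sums depend on which cell types each library held, and the levels within groups of cells are given further down.

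By position in the cluster, anterior genes made up 79.9% of Hox UMIs in EB and 10.2% in YS, central genes 7.88% and 77.4%, and posterior genes 12.2% and 12.4%. Anterior genes were at 42.4 CPM in EB and 19.9 in YS, so EB was 2.13 times higher (1.93 to 2.35). Central genes were at 4.18 CPM in EB and 151.4 in YS, a ratio of 36.2 (31.5 to 41.8), and posterior genes at 6.47 and 24.2 CPM, a ratio of 3.74 (3.27 to 4.30). Paralog group 1 gave the largest difference towards EB, 23.4 against 2.40 CPM, and group 8 the largest towards YS, 0.848 against 102 CPM. Group 2 lay at 17.6 and 15.5 CPM.

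**Figure D1:**
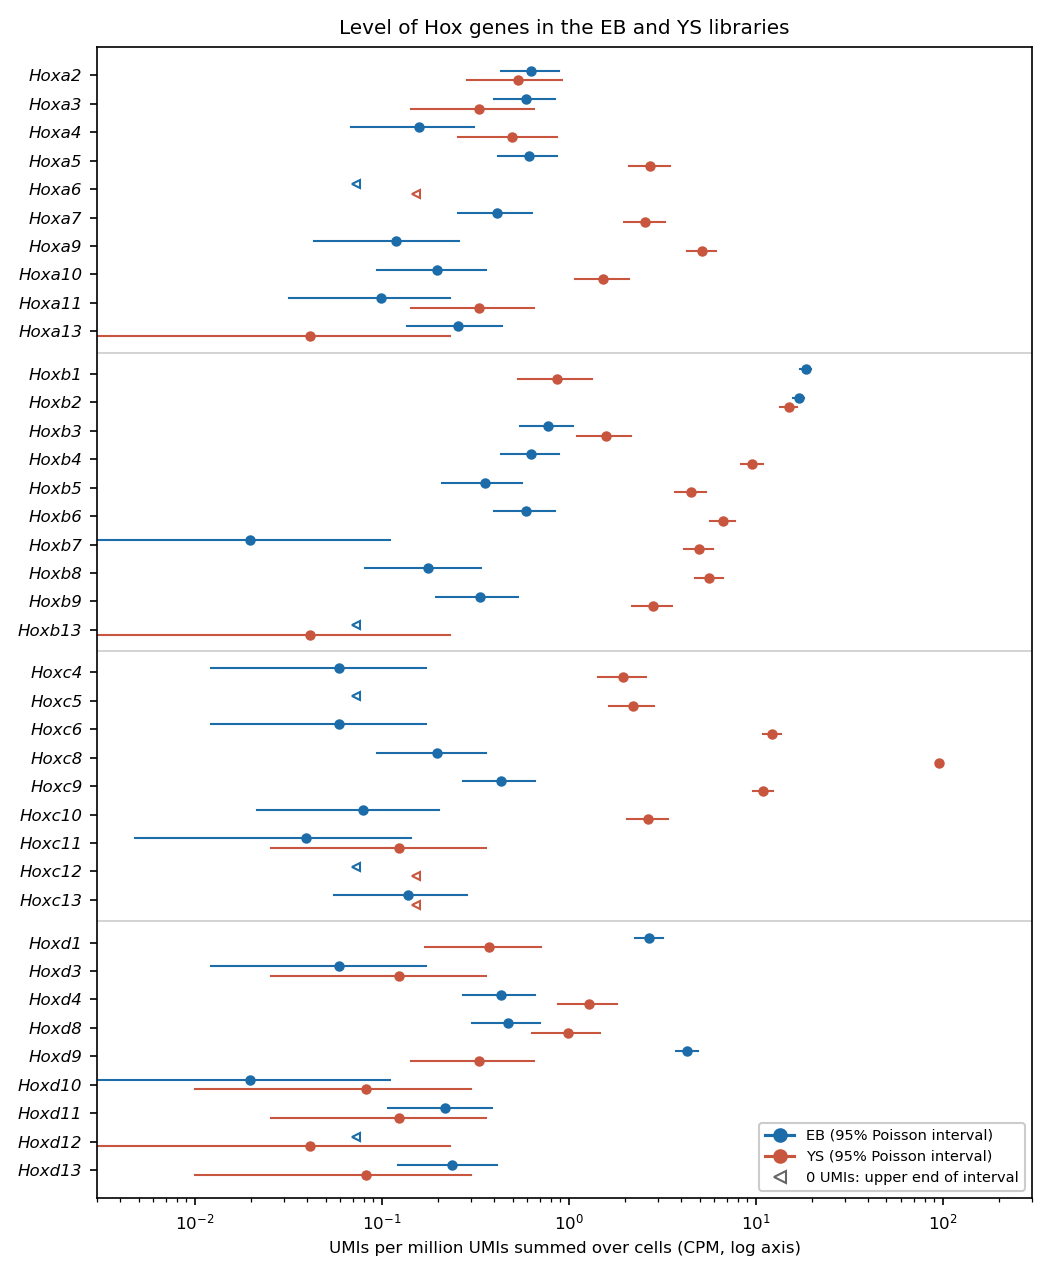
Level of 38 of the 39 Hox genes in CPM (log axis) in EB cells (blue, 1878 cells) and YS cells (red, 775 cells), in order of cluster and paralog number. Points are levels from summed UMIs, bars are 95% Poisson intervals, and open triangles give the upper end of the interval for a gene with 0 UMIs. Bars of genes with 1 UMI run past the left edge. Hoxb1, Hoxd1 and Hoxd9 stand to the right in EB, Hoxb2 is nearly level, and the central Hoxb and Hoxc genes stand to the right in YS.

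In EB, 34 of the 39 members had at least 1 UMI and 11 had 30 or more; Hoxa6, Hoxb13, Hoxc5, Hoxc12 and Hoxd12 had 0 UMIs. In YS, 36 had a UMI and 19 had 30 or more, with Hoxa6, Hoxc12 and Hoxc13 at 0. A count of 0 allows a level of up to 0.0592 CPM in EB and 0.124 CPM in YS at the floor of 3 counts used here. Of the 31 members with at least 10 UMIs in both libraries together, 21 were at least 2-fold higher in YS, where 21.5% of all 15621 genes compared were, and 5 were at least 2-fold higher in EB, where 18.5% of all genes were. On the log2 scale the members' median EB to YS ratio was -2.16, beside -0.0017 for all genes compared. Without the 59 YS cells that met no marker gate, 15 members remained past 2-fold in YS and 9 in EB. Hoxa4, Hoxa5, Hoxb3, Hoxb9, Hoxd4 and Hoxd8 were no longer past it in YS, and Hoxa2, Hoxa3 and Hoxd11 were among those that came to be past it in EB. Hoxd4 and Hoxa4 changed sides, with YS over EB ratios of 0.908 (0.368 to 2.05) and 0.833 (0.142 to 3.47), and Hoxa5 and Hoxb9 were level, at 1.00 and 1.04. Hoxa7 remained higher in YS, at 2.54 times the EB level (1.35 to 4.79), and the YS levels of Hoxb1, Hoxd1 and Hoxd9 were 0.219, 0.131 and 0.0438 CPM.

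Among the anterior genes Hoxb1, which patterns the hindbrain and is among the first Hox genes that retinoic acid induces, led the EB library. It was at 18.4 CPM (17.3 to 19.7, 935 UMIs) in EB and 0.868 CPM (0.538 to 1.33, 21 UMIs) in YS. EB was thus 21.2 times higher (13.8 to 34.5). A Hoxb1 UMI was found in 22.0% of EB cells and 1.68% of YS cells, or in 8.89% and 0.903% after every cell was thinned to 6000 UMIs. Free RNA at the level of empty droplets would give a Hoxb1 UMI in 0.22% of EB cells. Hoxb2, its neighbour in the cluster and also a hindbrain gene, was at 15.9 to 18.2 CPM (interval, 862 UMIs) in EB and 15.0 CPM (362 UMIs) in YS, a ratio of YS over EB of 0.88 (0.776 to 0.996). The direction of this small difference turned to 1.31 as a mean of per-cell CPM and to 1.14 without the globin-rich YS cells. Hoxb1 and Hoxb2 together held 66.8% of all Hox UMIs in EB.

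Hoxd1, the Hoxb1 paralog of the Hoxd cluster, was also higher in EB. It was at 2.68 CPM (136 UMIs) in EB and 0.372 CPM (9 UMIs) in YS, so that EB was 7.21 times higher (3.69 to 16.1). Hoxa2 was at 0.631 and 0.538 CPM, Hoxa3 at 0.592 and 0.331 CPM, and both ratios have intervals that include 1. Hoxb3 was at 0.769 CPM in EB and 1.57 in YS (ratio 2.04, 1.27 to 3.28).

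Hoxd9 stood out among the posterior genes of EB. It was at 4.30 CPM (3.75 to 4.91, 218 UMIs, 5.01% of cells) there and at 0.331 CPM (8 UMIs) in YS. Its neighbours in the Hoxd cluster were low in EB, with 24 UMIs for Hoxd8, 1 for Hoxd10 and 11 for Hoxd11. Hoxa13 (13 UMIs in EB, 1 in YS) and Hoxd13 (12 and 2), the most posterior genes of their clusters, were past 2-fold in EB on few counts, with intervals that include 1 (EB over YS 0.932 to 264 and 0.637 to 26.3).

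The central Hoxb genes were nearly all higher in YS. Hoxb4, known for its effect on the growth of blood stem cells, was at 0.631 CPM in EB and 9.55 CPM (8.36 to 10.9, 20.3% of cells) in YS, a ratio of 15.1 (10.4 to 22.6). Hoxb5 was at 0.355 and 4.51 CPM (12.7, 7.67 to 22.2) and Hoxb6 at 0.592 and 6.66 CPM (11.2, 7.58 to 17.2). Hoxb7 had 1 UMI in EB and 120 in YS (ratio 252, 44.3 to 10017), and Hoxb8 was at 0.178 and 5.62 CPM (31.7, 16.2 to 70.8). The posterior Hoxb9 was at 0.335 and 2.81 CPM (8.38, 4.87 to 15.2), but 64.7% of its YS UMIs were in 5 cells.

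Hoxc8, which patterns the trunk, was the most abundant member in YS, with 2314 UMIs, 48.9% of all Hox UMIs there. It was at 95.7 CPM (91.8 to 99.7) in YS and 0.197 CPM (10 UMIs) in EB, a ratio of 485 (263 to 1013). A Hoxc8 UMI was found in 30.8% of YS cells (25.8% thinned) and 0.319% of EB cells (0.0532% thinned), and free RNA would give one in 0.23% of YS cells. The genes on either side of it followed the same direction at lower levels. Hoxc6 was at 0.0592 CPM in EB and 12.2 CPM in YS (296 UMIs, ratio 207, 70.1 to 1009), and Hoxc9 was at 0.434 and 10.9 CPM (25.2, 16.3 to 40.8). Hoxc4 had 3 UMIs in EB and 47 in YS (32.8, 10.6 to 165), and Hoxc10 had 4 and 64 (33.5, 12.5 to 127). Hoxc5 had 0 UMIs in EB and 53 in YS, 37.0-fold higher there with 3 counts in place of 0 (lower end of the interval 29.1). Hoxc5 shares annotated bases with Hoxc10 on the same strand, so their reads may be split between them.

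In the Hoxa cluster the YS side was led by Hoxa9, a gene of blood progenitors, at 0.118 CPM (6 UMIs) in EB and 5.13 CPM (124 UMIs) in YS (ratio 43.3, 19.3 to 120). Hoxa5 was at 0.612 and 2.73 CPM (4.46, 2.87 to 7.08), Hoxa7 at 0.414 and 2.56 CPM (6.19, 3.72 to 10.7), and Hoxa10 at 0.197 and 1.53 CPM (7.76, 3.78 to 17.5). From 43.2% to 53.0% of the YS UMIs of these 4 genes were in 5 cells each. In the Hoxd cluster Hoxd4 was at 0.434 CPM in EB and 1.28 CPM in YS (2.95, 1.66 to 5.35), and it shares exons with Hoxd3. The 14 members with under 30 UMIs in each library lay between 0 and 24 UMIs in both.

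EB cells were grouped by marker genes other than Hox genes into 12 gates, a cell going to the first gate it met, and each gate was checked with further markers. Names with "-like" are used where at least 3 check markers were 2-fold higher than in the other cells, and the remaining gates are called by the genes that define them. The gates are ranges of marker UMIs and not sharp types: 60.5% of EB cells met several gates, and 10.4% met none. Hox levels were highest in cells with Tbx6, Dll1 and Msgn1, genes of the mesoderm beside the midline (116.6 CPM, 98.7 to 137, 45 cells), followed by cells gated on the summed UMIs of Bmp4, Hand1 and Tbx4, which are allantois and extraembryonic mesoderm-like (108.9 CPM, 101.0 to 117, 235 cells). Those intervals overlap, and 1 of the 45 Tbx6 Dll1 Msgn1 cells held 36 Hox UMIs, beside a median of 2 per cell. Tbx4, a gene of the allantois, had 2 UMIs in the extraembryonic mesoderm-like gate (0.309 CPM), so its cells met the gate almost wholly by Bmp4 and Hand1, the latter at 554 CPM. A list of 7 fibroblast genes, which feeder cells would carry, was also highest in this EB gate, at 40.3 CPM against 2.40 to 18.9 CPM in the others, with Col3a1, Lum and Postn at 0, and its part in the Hox level was not tested.

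A middle group of gates followed, each below that pair beyond counting error. Cells with Mesp1, a gene of mesoderm leaving the streak, were at 57.9 CPM (52.7 to 63.5, 305 cells), Prdm1 Prdm14 cells at 54.2 (42.8 to 67.6, 46 cells), Kdr Etv2 cells at 53.8 (48.6 to 59.4, 233 cells) and Kdr Pdgfra cells at 53.0 (43.4 to 64.2, 79 cells). The Prdm1 Prdm14 level leaned on 1 cell with 39 Hox UMIs, and 26 of the 46 cells had none. That cell held 17 of the gate's 25 Hoxd9, 10 of its 20 Hoxb1 and 3 of its 14 Hoxb2 UMIs. Cells with T and Mixl1, genes of the primitive streak, were at 41.6 CPM (36.2 to 47.6, 197 cells), hemangioblast-like cells, the common precursors of blood and vessels, at 41.1 (34.9 to 48.0, 121 cells), ungated cells at 39.6 and epithelial-like cells at 35.9 (31.8 to 40.3, 227 cells). Each of these overlaps its neighbour in the order. The order within this group depended on the cells that met several gates. Without them T Mixl1 cells were at 70.1 CPM (59.6 to 81.9), above Kdr Etv2 cells at 44.4 (32.4 to 59.4), while Kdr Pdgfra cells were at 30.8 (17.9 to 49.3) and hemangioblast-like cells at 25.7 (11.8 to 48.9). Hox transcripts were scarce in epiblast-like (9.82 CPM, 6.00 to 15.2), naive pluripotent-like (6.00, 1.95 to 14.0) and endoderm-like cells (3.72, 1.37 to 8.10), with 20, 5 and 6 Hox UMIs in 84, 36 and 74 cells.

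**Figure D2:**
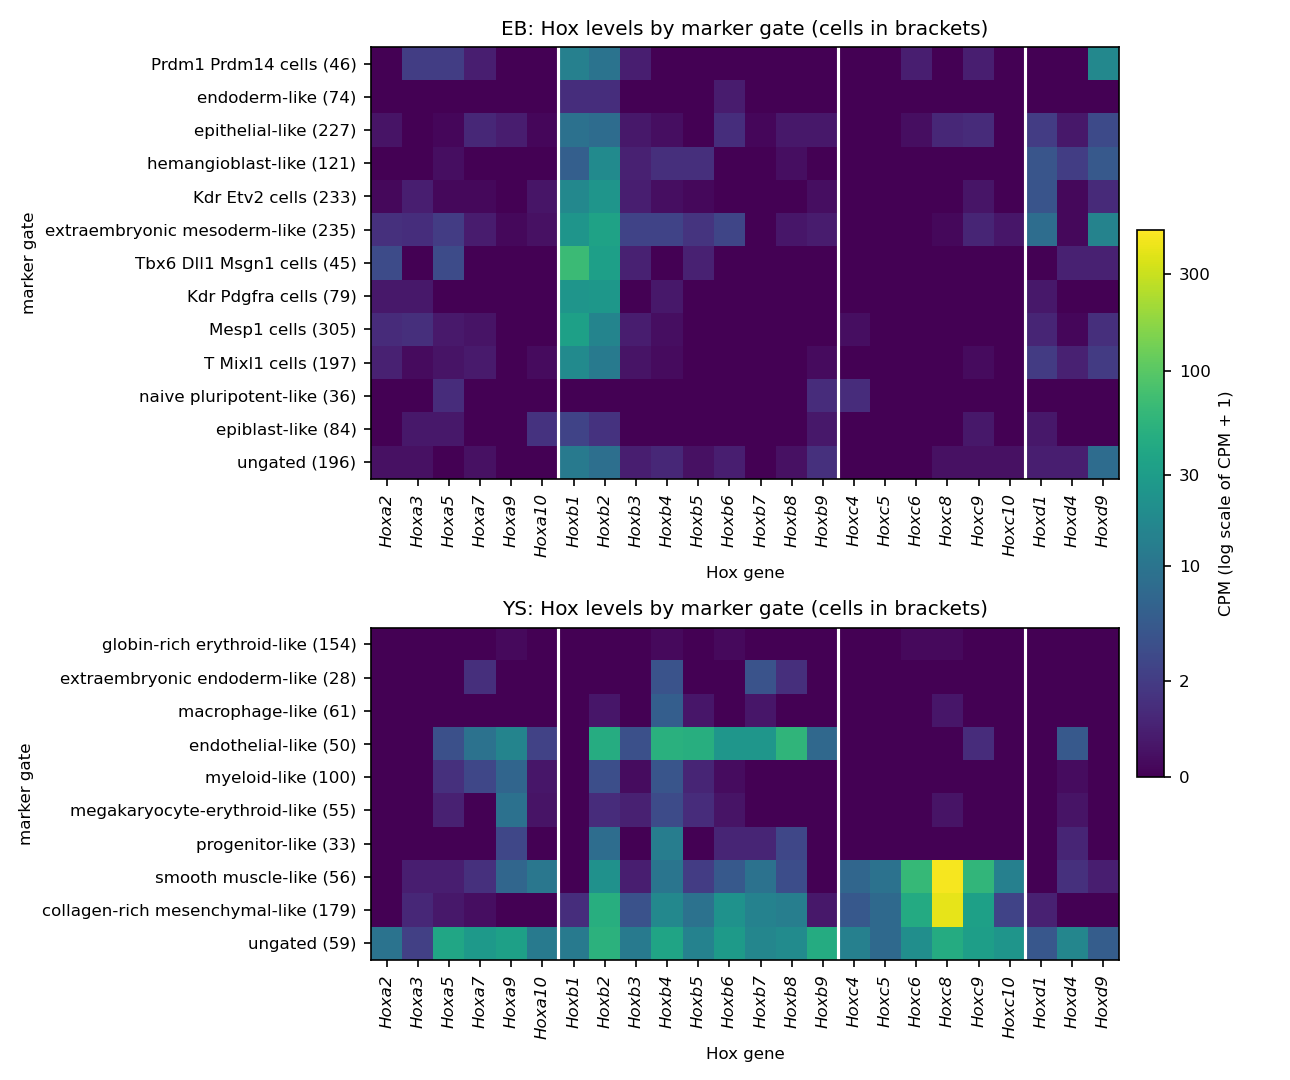
CPM of 24 of the 25 Hox genes with at least 30 UMIs in either library (columns, by cluster, white lines between clusters) in each marker gate (rows, cells in brackets) of EB above and YS below. The colour is the CPM on a log scale of CPM + 1. Hoxb1 and Hoxb2 form the brightest columns of EB, and Hoxc6 to Hoxc9 are bright in the smooth muscle-like, collagen-rich and ungated cells of YS.

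Hoxb1 and Hoxb2 differed in their order over the EB gates. Hoxb1 was highest in the Tbx6 Dll1 Msgn1 cells (68.7 CPM, 55.2 to 84.6, in 55.6% of cells), then in Mesp1 cells (33.4, 29.4 to 37.7), and lowest among the mesodermal gates in hemangioblast-like cells (5.49, 3.40 to 8.40, in 9.92% of cells). In the Tbx6 Dll1 Msgn1 cells 30 of the 89 Hoxb1 UMIs were in 1 cell, and the median cell had 1. Hoxb2 was highest in extraembryonic mesoderm-like cells (35.3 CPM, 30.9 to 40.2, in 40.9% of cells) and in Tbx6 Dll1 Msgn1 cells (32.4, 23.4 to 43.8), with overlapping intervals. It was at 24.8 CPM in Kdr Etv2 cells, 18.6 in hemangioblast-like cells and 15.4 (12.8 to 18.4) in Mesp1 cells. Hoxb1 therefore led in the Mesp1 and Tbx6 Dll1 Msgn1 cells and Hoxb2 in the hemangioblast-like, Kdr Etv2 and extraembryonic mesoderm-like cells. After thinning, Hoxb1 was found in 28.9%, 14.8% and 1.65% of the Tbx6 Dll1 Msgn1, Mesp1 and hemangioblast-like cells, and Hoxb2 in 17.8%, 8.85% and 4.96%. In Prdm1 Prdm14 cells 85.0% of the 20 Hoxb1 UMIs and 92.9% of the 14 Hoxb2 UMIs were in 5 cells, and in hemangioblast-like cells 66.7% and 66.2%.

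The Hoxd genes of EB were concentrated in the extraembryonic mesoderm-like cells. Hoxd9 was at 15.1 CPM there (12.3 to 18.4, 98 UMIs, 15.3% of cells, 36.7% of the UMIs in 5 cells), and these cells held 45.0% of all EB Hoxd9 UMIs but 12.8% of the UMIs of all genes. Prdm1 Prdm14 cells had a Hoxd9 level of 17.4 CPM, but their 25 UMIs came from 5 cells, 17 of them from 1 cell. Hoxd9 was at 8.05 CPM in ungated, 4.71 in hemangioblast-like, 1.28 in Mesp1 and 1.09 in Kdr Etv2 cells, and it had 0 UMIs in endoderm-like cells. Hoxd1 was at 8.33 CPM (6.26 to 10.9, 14.9% of cells) in extraembryonic mesoderm-like cells, 4.19 in hemangioblast-like, 3.97 in Kdr Etv2 and 0.898 (0.361 to 1.85) in Mesp1 cells.

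Hoxb3, also among the 6 members with most UMIs in EB, was at 2.47 CPM (1.41 to 4.01) in extraembryonic mesoderm-like cells and at 0.785 CPM or below in hemangioblast-like, Kdr Etv2, Mesp1 and epithelial-like cells.

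Extraembryonic mesoderm-like cells had UMIs of 31 of the 39 members, against 15 in the Mesp1 cells, which were more numerous. Part of this breadth came from 1 extraembryonic mesoderm-like cell that alone carried 17 members. It held the only Hoxc8 UMI of its gate, 4 of 6 Hoxc9 UMIs and 2 of 3 Hoxc10 UMIs. Among 13 members with at least 10 UMIs in these gates together, 9 were at least 2-fold higher in extraembryonic mesoderm-like cells (7.17% of all genes were) and 0 in Mesp1 cells (4.11% of all genes). The 9 were Hoxa5, Hoxb2, Hoxb3, Hoxb4, Hoxb5, Hoxb6, Hoxd1, Hoxd8 and Hoxd9. The members' median log2 ratio of Mesp1 over extraembryonic mesoderm-like cells was -1.97, beside -0.0514 for all genes. The Hoxd cluster was at 26.7 CPM in extraembryonic mesoderm-like and 2.57 CPM in Mesp1 cells (ratio 10.4, 6.53 to 17.4), and posterior genes at 20.1 and 1.67 CPM (ratio 6.79 to 23.2). Hoxb1 went the other way within 2-fold, at 24.5 CPM in extraembryonic mesoderm-like and 33.4 in Mesp1 cells. Posterior genes were 18.4% of Hox UMIs in extraembryonic mesoderm-like cells, 2.88% in Mesp1 cells and 0 of 106 Hox UMIs in Kdr Pdgfra cells.

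Cdx2, a caudal factor, was detected in 523 EB cells. Hox transcripts were at 84.9 CPM (80.3 to 89.6) in these and at 39.2 CPM (37.1 to 41.3) in the 1355 cells without a Cdx2 UMI, at median depths of 27297 and 24932 UMIs. The anterior genes differed less than the others: 58.1 against 35.6 CPM for anterior, 9.68 against 1.79 for central, and 17.1 against 1.84 for posterior genes. Hoxd9 was at 12.3 CPM (10.6 to 14.2) with Cdx2 and 0.822 (0.550 to 1.18) without, whereas Hoxb2 was at 19.6 and 15.9 CPM. Cells of all gates were counted together, and the part of gate make-up was not tested. T Mixl1 cells had Cdx2 at 54.5 CPM and 10 Hoxd9 UMIs, and extraembryonic mesoderm-like cells had Cdx2 at 56.9 CPM and 98 Hoxd9 UMIs.

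A few EB cells carried many Hox genes. In 3 cells 10 or more members had a UMI (17, 15 and 10 members, with 31, 34 and 39 Hox UMIs), and they fell in the extraembryonic mesoderm-like, epithelial-like and Prdm1 Prdm14 gates. Together they held all 11 Hoxd11 UMIs of EB, 12 of 22 Hoxc9 UMIs, 19 of 218 Hoxd9 UMIs and 3 of 10 Hoxc8 UMIs. They had 4, 6 and 21 Cdx2 UMIs and so were among the cells with Cdx2. Without these cells Hoxc9 was at 0.198 CPM in EB, and YS was 55.1 times higher (29.5 to 116). The fibroblast genes Col3a1, Lum and Thy1, which feeder cells would carry, were at 0 in these 3 cells, and Col1a1 had 0, 2 and 2 UMIs. Over all EB cells the 7 fibroblast genes summed to 12.6 CPM, with Lum at 0.

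YS cells were grouped in the same way into 9 gates, and each name was met by at least 3 check markers. Several gates were met by 47.6% of YS cells and none by 7.61%. Hox transcripts were highest in smooth muscle-like and collagen-rich cells and lowest in red cells. Smooth muscle-like cells, gated on Actg2 and Myh11, were at 689.7 CPM (648 to 733, 56 cells). Collagen-rich mesothelial and mesenchymal-like cells, gated on Col1a1, Col1a2 and Col3a1 and called collagen-rich here, were at 624.1 CPM (599.8 to 649, 179 cells). Every cell of both gates had a Hox UMI, with medians of 16 and 11 Hox UMIs per cell. The lateral plate and limb list (Tbx5, Prrx1, Pitx1 and Hand2) was highest in the same gates, at 218 CPM in smooth muscle-like and 135 CPM in collagen-rich cells, the latter with Tbx5 and Prrx1 at 0, against 47.4 CPM in ungated cells and 40.5 CPM or less elsewhere in YS. Its part in these Hox levels was not tested. Ungated cells were at 556.7 CPM (518 to 598, 59 cells) and endothelial-like cells, gated on Cdh5, Lyve1 and Stab2, at 310.4 CPM (274 to 350.3, 50 cells).

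The blood cell gates were lower than all of these. Runx1 Myb progenitor-like cells were at 30.1 CPM (20.7 to 42.2, 33 cells), Mpo Prtn3 myeloid-like cells at 21.2 (17.1 to 26.0, 100 cells), megakaryocyte-erythroid-like cells at 18.5 (13.6 to 24.6, 55 cells) and macrophage-like cells at 7.26 (4.15 to 11.8, 61 cells). Extraembryonic endoderm-like cells were at 14.4 CPM (7.18 to 25.7, 28 cells). Each of these overlaps its neighbour in the order. With the gate minimums doubled, myeloid-like cells were at 12.3 CPM and among the 3 lowest YS gates. Globin-rich erythroid-like cells had 5 Hox UMIs in 154 cells, 0.898 CPM (0.291 to 2.09).

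Hoxc8 was found almost only in the smooth muscle-like and collagen-rich cells among the named YS gates. It was at 453.5 CPM (419.9 to 489) in smooth muscle-like and 395.7 CPM (376 to 416) in collagen-rich cells, where it made up 65.8% and 63.4% of Hox UMIs. These gates held 29.1% and 68.2% of all Hoxc8 UMIs but 6.15% and 16.5% of the UMIs of all genes. Per cell, smooth muscle-like cells had from 0 to 43 Hoxc8 UMIs, and 54 of 56 had at least 1. Collagen-rich cells had from 0 to 37 with a median of 8, and 164 of 179 had at least 1. Endothelial-like cells had 0 Hoxc8 UMIs in 50 cells of a median 13499 UMIs. The Clopper-Pearson interval allows up to 7.11% of such cells to have a Hoxc8 UMI at this depth, which does not limit the share of cells that express the gene. Ungated cells were at 44.4 CPM (33.9 to 57.2), with 66.7% of their 60 UMIs in 5 cells, and the other 6 gates held 3 Hoxc8 UMIs in all.

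Hoxc6 and Hoxc9 were highest in the same gates. Hoxc6 was at 63.3 CPM (51.1 to 77.4, 58.9% of cells) in smooth muscle-like, 43.4 (37.2 to 50.4, 53.6%) in collagen-rich and 20.7 in ungated cells, and it had 0 UMIs in endothelial-like cells. Hoxc9 was at 58.5 CPM (46.9 to 72.2) in smooth muscle-like, 33.4 (27.9 to 39.6) in collagen-rich, 31.8 in ungated and 1.18 in endothelial-like cells, the last from 1 UMI. After thinning to 6000 UMIs Hoxc6 was found in 26.8% and 22.9% of the smooth muscle-like and collagen-rich cells, and Hoxc9 in 23.2% and 15.1%.

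The Hoxb genes had a wider distribution that took in the vessels. Hoxb4 was highest in endothelial-like cells (50.9 CPM, 36.9 to 68.6, 48.0% of cells), followed by ungated (36.3), collagen-rich (17.1, 13.3 to 21.6) and progenitor-like cells (12.8, 6.98 to 21.4, 36.4% of cells). It was also the leading member of the macrophage-like cells, with 12 of their 16 Hox UMIs (5.45 CPM, 2.81 to 9.51). Hoxb2 was level in collagen-rich (47.7 CPM, 41.1 to 55.0) and endothelial-like cells (46.2, 32.9 to 63.2), lower in smooth muscle-like cells (22.2, 15.3 to 31.2) and at 8.20 CPM in progenitor-like cells. Hoxb6 was at 24.9 CPM (15.4 to 38.0) in endothelial-like, 22.6 (18.2 to 27.8) in collagen-rich and 4.71 (1.89 to 9.70) in smooth muscle-like cells. Hoxb8, whose promoter is printed above, was at 56.9 CPM (41.9 to 75.4, 50.0% of cells) in endothelial-like and 13.3 CPM (9.96 to 17.4) in collagen-rich cells.

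Endothelial-like and collagen-rich cells differed in the clusters their Hox UMIs came from. Hoxb made up 84.7% of Hox UMIs in endothelial-like cells and 20.8% in collagen-rich cells, and Hoxc 0.382% and 78.0%. Of 16 members compared, 5 were at least 2-fold higher in endothelial-like cells (17.3% of all genes were): Hoxa9, Hoxb4, Hoxb5, Hoxb8 and Hoxd8, the last on 6 and 5 UMIs. Another 5 were at least 2-fold higher in collagen-rich cells (13.9% of all genes): among them Hoxc5, Hoxc6, Hoxc8 and Hoxc9, with Hoxc8 at least 111-fold higher. The members' median log2 ratio of endothelial-like over collagen-rich cells was at most 0.0471, since 5 members had 0 UMIs in endothelial-like cells and enter at the floor, beside 0.0907 for all genes. Hoxb5 was at 48.6 CPM in endothelial-like and 9.28 in collagen-rich cells (5.23, 3.27 to 8.39), and Hoxa9 had 13 and 0 UMIs. Genes of collagen-rich cells were low in the endothelial-like gate: the 7 fibroblast genes summed to 26.1 CPM there, to 9673 CPM in collagen-rich and to 8986 CPM in smooth muscle-like cells. These genes include Col1a1, Col1a2 and Col3a1, which define the collagen-rich gate, so the level in that gate is partly set by the gating.

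**Figure D3:**
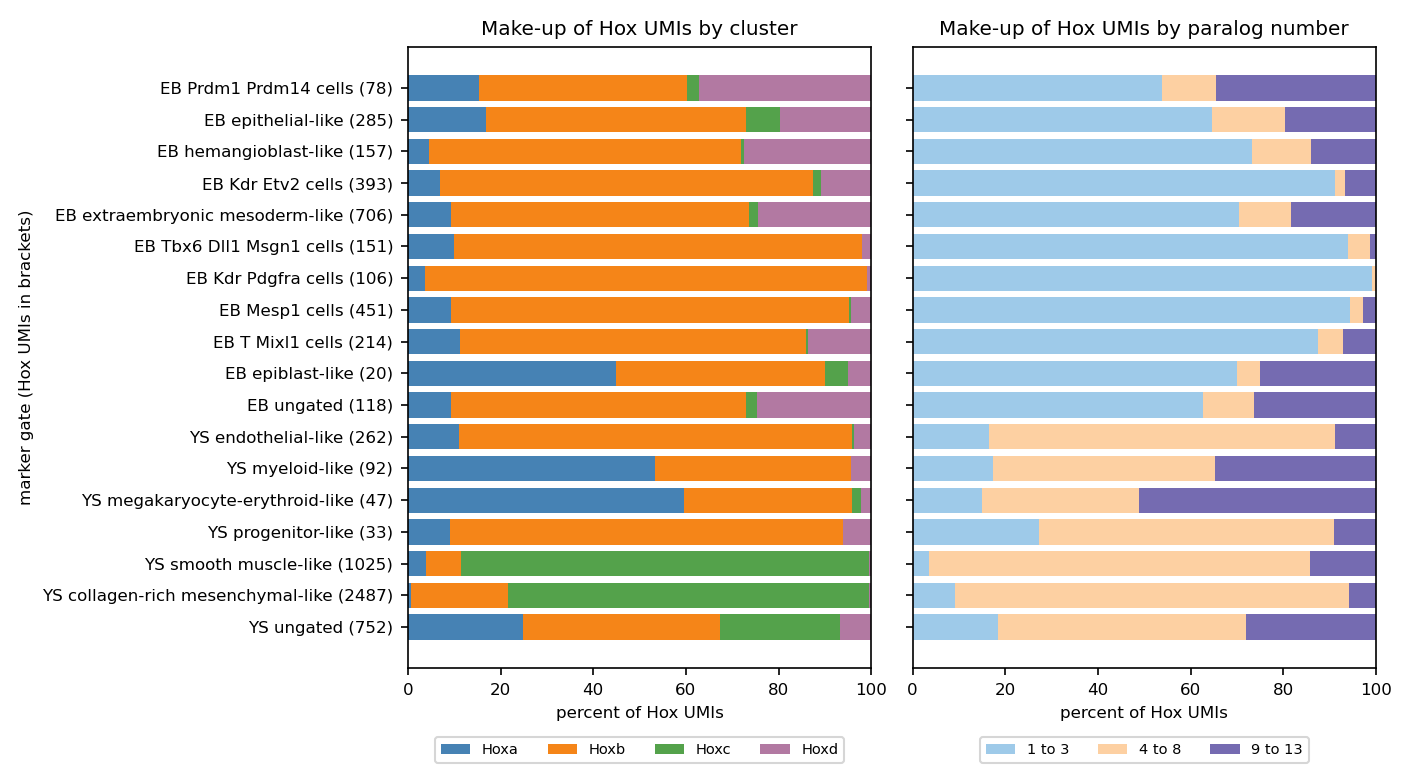
Percent of Hox UMIs by cluster (left) and by paralog class (right: anterior, central, posterior) in each of 18 marker gates that had at least 20 Hox UMIs, with the Hox UMIs of each gate in brackets. Anterior genes hold from 53.8% to 99.1% of Hox UMIs in the EB gates, Hoxc holds 87.9% and 78.0% in the smooth muscle-like and collagen-rich YS cells, and Hoxb holds 84.7% in the endothelial-like YS cells.

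Within the Hoxc-rich cells, smooth muscle-like cells had more of the posterior genes. The gates overlap, as 236 cells met the collagen-rich gate and 179 were assigned to it. Under 10 of the 56 smooth muscle-like cells met no other gate, so the difference could not be checked in cells of a single gate. Posterior genes were at 97.6 CPM (82.3 to 115) in smooth muscle-like and 36.6 CPM (30.9 to 43.1) in collagen-rich cells, a ratio of 2.66 (2.10 to 3.37), while central genes were at 567 and 530.0 CPM. Of 16 members compared, 3 were at least 2-fold higher in smooth muscle-like cells (6.7% of all genes were): Hoxa9 (10 and 0 UMIs), Hoxa10 (16 and 0 UMIs, at least 14.3-fold) and Hoxc10 (14.1 and 2.51 CPM, 5.63, 2.54 to 13.4). In the other direction 6 were at least 2-fold lower (6.01% of all genes): among them Hoxb2, Hoxb3, Hoxb5, Hoxb6 and Hoxb8. The interval of Hoxb3 includes 1. The members' median log2 ratio of smooth muscle-like over collagen-rich cells was -0.215, beside 0.0290 for all genes. Hoxa9 and Hoxa10 were in few smooth muscle-like cells, 5 and 7 of 56.

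Blood cell gates had few Hox UMIs, and part of them came from single cells. Progenitor-like cells had 33 Hox UMIs, led by Hoxb4 with 14 (12 of 33 cells) and Hoxb2 with 9. Myeloid-like cells had 92, led by Hoxa9 with 29, of which 89.7% were in 5 cells, and Hoxb4 with 18 in 15 of 100 cells. In megakaryocyte-erythroid-like cells Hoxa9 gave 23 of 47 Hox UMIs, but from 2 cells, and 1 cell held 28 of the 47. With the cells that met several gates left out, that gate was at 3.53 CPM (0.427 to 12.7). Fibroblast genes summed to 346 CPM in progenitor-like cells, above the 14.5 to 18.3 CPM of the other blood cell gates, and their part in the Hox level was not tested.

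The ungated YS cells had the broadest Hox profile of any gate. UMIs of 33 of the 39 members were found in these 59 cells, with Hoxb2 (72 UMIs), Hoxb9 (60), Hoxc8 (60) and Hoxa5 (52) leading, and no cluster held more than 42.6% of their 752 Hox UMIs. They held 60 of the 68 Hoxb9 UMIs of YS and were at 33.3 CPM for Hoxa9, 28.1 for Hoxa7 and 24.4 for Hoxc10. Markers of the somites and the nervous system moved with this: the somite list (Pax3, Meox1, Tcf15 and Pax1) summed to 179 CPM with Pax1 at 0, against 17.8 CPM or less in every other YS gate, and the neural list of 5 genes summed to 60.7 CPM, against 7.36 CPM or less. In the 7 ungated cells with 3 or more somite list UMIs, Hox transcripts were at 1352 CPM (1201 to 1516) with 39.2% posterior, and in the other 52 at 405 CPM (369 to 443) with 20.9% posterior. The 7 cells held 42 of the 60 Hoxb9 UMIs. The part of embryo tissue in these levels was not tested. Without the ungated cells the YS sum was 174.2 CPM and 3.28 times that of EB.

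Hox genes were also counted per cell. At least 1 Hox UMI was found in 40.5% of EB and 52.6% of YS cells, or in 20.1% and 41.3% after thinning to 6000 UMIs. Cells with 5 or more members were 29 of 1878 in EB (1.54%, 0.106% thinned) and 126 of 775 in YS (16.3%, 2.19% thinned), and the most in a cell were 17 and 18. The median was 4 members in smooth muscle-like and collagen-rich cells, 3 in endothelial-like cells and 0 or 1 in every EB gate.

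**Figure D4:**
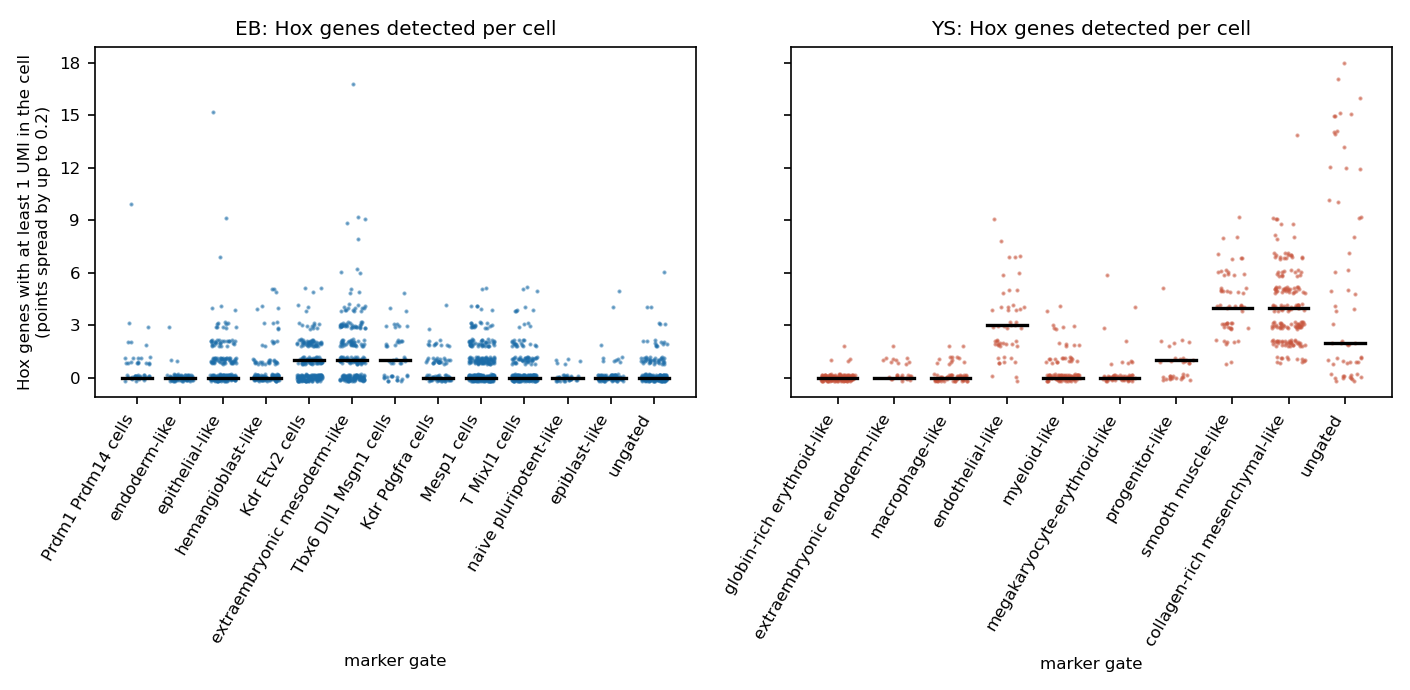
Number of Hox genes with at least 1 UMI in each cell (points, spread by up to 0.2 for visibility) by marker gate in EB (left) and YS (right), without thinning, with the median of each gate as a black line. Medians are 4 in the smooth muscle-like and collagen-rich cells, 3 in the endothelial-like cells and at most 1 in the EB gates, and single cells reach 17 in EB and 18 in YS.

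Neighbouring genes were often found in the same cell. In EB, Hoxb2 was found in 51.7% (46.8 to 56.6) of the 414 cells with Hoxb1, against 11.9% (10.3 to 13.7) of the others, or in 24.6% and 6.60% after thinning, at median depths of 29948.5 and 24416.5 UMIs before it. Hoxd9 was found in 7.97% of Hoxb1 cells and 4.17% of the others, and Hoxd1 in 6.76% and 4.71%. Among the 388 cells with Hoxb2, Hoxd1 was found in 12.6% (9.49 to 16.4), against 3.22% (2.38 to 4.25) of the others. In YS, 93.7% (88.3 to 97.1) of the 142 cells with Hoxc6 had Hoxc8, against 16.7% of the others, and 93.9% of the 115 cells with Hoxc9 did, against 19.8%. These cells were not deeper, with median totals of 25479.5 UMIs with Hoxc6 and 30577 without. However, Hoxc8 was in 96.4% of all smooth muscle-like and 91.6% of all collagen-rich cells, the gates where Hoxc6 and Hoxc9 were highest. The pairs of both libraries were counted over all gates together. Whether they occur together beyond the make-up of the gates was not tested.

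Hoxb and Hoxc UMIs were found in the same cell in 63.7% (56.2 to 70.7) of collagen-rich and 62.5% (48.5 to 75.1) of smooth muscle-like cells, or in 36.3% and 23.2% after thinning. Of endothelial-like cells 92.0% had a Hoxb UMI, and 1 of 50 had both. Their median of 13499 UMIs per cell was below the 21069 and 26839.5 UMIs of the collagen-rich and smooth muscle-like cells.

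The nearest counterparts by name were then compared across the libraries. EB hemangioblast-like cells were at 41.1 CPM and YS endothelial-like cells at 310.4 CPM, a ratio of 7.56 (6.18 to 9.27). Of 11 members compared, 8 were at least 2-fold higher in YS endothelial-like cells (24.5% of all genes were) and 0 in EB hemangioblast-like cells (13.7%). The 8 were Hoxa9, Hoxb2, Hoxb4, Hoxb5, Hoxb6, Hoxb7, Hoxb8 and Hoxd4, the last with an interval that includes 1. Central genes were at 5.23 and 232 CPM (44.4, 28.0 to 74.2), anterior genes at 30.1 and 50.9 CPM (1.69, 1.16 to 2.42). Hoxb8 had 1 and 48 UMIs, and Hoxa9 had 0 and 13, with 8 of the 13 in 1 cell. In the other direction Hoxb1 (21 UMIs), Hoxd9 (18) and Hoxd1 (16) were found in the EB cells and had 0 UMIs in the YS cells. With 3 counts in place of 0 the EB levels were 1.55, 1.33 and 1.18 times those of YS. The lower ends of their intervals were 1.15, 0.971 and 0.852, so those of Hoxd9 and Hoxd1 include 1. The floor of 3 counts in 50 cells keeps these ratios under 2-fold, so these members could not be called. On the log2 scale the members' median EB to YS ratio was at most -4.29, a bound set by the floor for Hoxa9, beside -0.179 for all genes.

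Against the YS progenitor-like cells the sum did not differ beyond counting error, at 30.1 CPM, 0.732 times the EB hemangioblast-like level (0.487 to 1.07). Of 5 members compared, Hoxb1 and Hoxb2 were at least 2-fold higher in EB (18% of all genes were) and Hoxb4 in YS (16.1%), at 1.31 and 12.8 CPM (9.75, 3.32 to 34.6). Hoxd9 and Hoxd1 had 0 UMIs in the YS cells. With 3 counts in place of 0 their EB levels were 1.72 and 1.53 times those of YS, with lower interval ends of 1.26 and 1.11. The median EB to YS ratio, as log2, was at least 0.784 for the 5 members, the bound of Hoxd9, and -0.0637 for all genes. The Hoxd cluster was at 11.2 CPM in EB hemangioblast-like and 1.82 CPM (2 UMIs) in YS progenitor-like cells.

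EB extraembryonic mesoderm-like cells and YS collagen-rich cells both had many Hox members and differed in which. Of 20 compared, 11 were at least 2-fold higher in YS (19.8% of all genes were): Hoxb4 to Hoxb8, Hoxc4, Hoxc5, Hoxc6, Hoxc8, Hoxc9 and Hoxc10. Another 4 were at least 2-fold higher in EB (16.6%): Hoxa5, Hoxb1, Hoxd1 and Hoxd9, with an interval that includes 1 for Hoxa5. The median EB to YS ratio, as log2, was -2.51 for the members and -0.0189 for all genes. Hoxc8 had 1 UMI in the EB cells and 1577 in the YS cells. Hoxd9 had 98 and 0 UMIs, at least 20.1-fold higher in EB, and Hoxb1 was at 24.5 and 1.25 CPM (EB over YS 19.5, 8.20 to 61.0). Hoxb2 was within 2-fold, at 35.3 and 47.7 CPM (1.35, 1.11 to 1.64).

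Genes that act on or with the Hox clusters were compared between the libraries too. Of all 15621 genes compared, 18.5% were at least 2-fold higher in EB and 21.5% in YS. The lists are short, and none was tested against these shares. All 3 caudal factors were at least 2-fold higher in EB: Cdx1 at 5.48 against 0.207 CPM, Cdx2 at 37.2 against 0.786 and Cdx4 with 33 against 0 UMIs. With 3 counts in place of 0 Cdx4 was 5.25-fold higher (lower end of the interval 4.03). Within EB, Cdx2 was at 195 CPM in Prdm1 Prdm14 cells, 56.9 in extraembryonic mesoderm-like, 54.5 in T Mixl1, 39.7 in Mesp1, 11.4 in Kdr Etv2 and 9.68 in hemangioblast-like cells. Of 5 retinoic acid genes 2 were at least 2-fold higher in EB and 1 in YS. Cyp26a1, which breaks down retinoic acid, was at 237 CPM in EB and 0.992 in YS. Evx1, a streak homeobox gene next to the Hoxa cluster, was at 68.8 CPM in EB with 2 UMIs in YS, and it and Cyp26a1 had the lowest YS to EB ratios of these lists.

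Among the 9 PBX, MEIS and PKNOX cofactors, 3 were at least 2-fold higher in EB (18.5% of all genes were) and 1 in YS (21.5%). Meis1, a partner of HOXA9 in blood cells, was at 0.690 CPM in EB and 22.8 in YS (33.0, 23.4 to 47.9). Within YS it was not confined to blood cells. It was at 50.1 CPM in progenitor-like, 41.3 in megakaryocyte-erythroid-like, 38.0 in myeloid-like, 14.1 in macrophage-like and 0.718 in globin-rich cells. In the other gates it was at 51.8 CPM in ungated, 35.5 in endothelial-like, 28.3 in smooth muscle-like, 10.8 in collagen-rich and 7.85 in extraembryonic endoderm-like cells. Meis2 was at 40.9 CPM in EB and 35.3 in YS, but at 252 CPM in endothelial-like and 0.691 in myeloid-like cells. Meis3 was at 25.1 and 5.04 CPM, Pbx3 at 35.2 and 13.1 and Pbx4 at 3.08 and 0.827, all higher in EB. Pbx2 (31.4 and 47.7 CPM), Pknox1 (8.25 and 9.68) and Pknox2 (2.31 and 1.78) were within 2-fold. Of 12 Polycomb genes 3 were at least 2-fold higher in EB (Cbx2, Cbx7 and Phc1) and 3 in YS (Bmi1 and Cbx8 among them), near the shares of all genes. Of 3 trithorax genes none was past 2-fold. Of the inhibitors and partners, Hmgb1 was higher in YS (768 and 1664 CPM) and Gmnn within 2-fold.

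Of 12 non-coding or antisense rows at the clusters 8 had enough UMIs. Among these 2 were at least 2-fold higher in EB (18.5% of all genes were) and 3 in YS (21.5%). Hoxb3os, which lies antisense to Hoxb2 and Hoxb3, was at 7.91 CPM in EB and 2.98 in YS, and Hoxb2 was found in 60.2% of the 261 EB cells with Hoxb3os and 14.3% of those without, in YS in 50.9% of 57 and 19.6%. The strand used in counting is not stated, so reads of such a pair cannot be told apart. Haglr, at the Hoxd cluster, was at 2.56 CPM in EB and 0.331 in YS, and Hoxd1 was found in 22.8% of the 114 EB cells with it and 4.02% of the others. EB cells with these rows were deeper, with medians of 29947 UMIs with Hoxb3os and 24964 without, and 29952.5 with Haglr and 25323 without. These shares were not thinned, and the part of depth and gate make-up in them was not tested. Hoxb5os had 0 UMIs in EB and 83 in YS, and 67 of the 83 were in the ungated cells. With 3 counts in place of 0 its ratio was 58.0 (lower end of the interval 46.1), the highest YS to EB ratio of these lists.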

How the data were processed

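The authors deposited, for each library, raw UMI counts per gene and barcode, unfiltered, for 33456 genes and 737280 barcodes. The build mm10 is named in the submitters' processing notes, while for aligner, counter, annotation and counting strand nothing is stated: not given in the sources used here. From these counts, EB barcodes with 6172 or more UMIs and YS barcodes with 6537 or more (10% of the 99th percentile among the 3000 deepest barcodes) were kept if at most 10% of their UMIs were mitochondrial, which removed 142 of 2020 and 26 of 801. Scrublet (scanpy 1.11.5) called 3 doublets in EB and 2 in YS, 0.16% and 0.258% of cells. The rates assumed for it were 1.50% and 0.62%, at 0.8% per 1000 cells. Whether it missed doublets was not tested, no cell was removed in the main results and doublets may remain.

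UMIs were summed over cells. A gene was compared if the groups summed to 10 or more of its UMIs, and called past 2-fold. A fold against 0 UMIs sets a floor of 3 counts over the group in place of 0. Such a fold, also where written as "at least", leaves out counting error, and the lower end of its interval can lie below it. Thinning drew 6000 UMIs per cell, and empty droplets were barcode ranks 10001 to 50000. Ratio intervals were tried only on simulated Poisson counts, the model they assume. That trial cannot show how they behave where UMIs are clumped in single cells. Named genes were those with at least 30 UMIs in either library, with the 6 of most UMIs followed over the gates, all Cdx and PBX, MEIS and PKNOX genes, and the 2 highest and 2 lowest ratios of the other lists; further members were named after their values were seen. Some genes that this rule takes in are counted but not reported here by name. Coordinates are those of GENCODE M21 (GRCm38), which matched 39 of 39 Hox IDs, and RefSeq (GRCm38.p6). Python 3.11.15, numpy 2.4.6, scipy 1.17.1, pandas 2.3.3 and matplotlib 3.10.9 were used. The members and lists were chosen with earlier results of these data known.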

Additional observations from a re-analysis of the deposited data

How the results depend on the processing

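Of 69 alternative values of the main results 53 stayed within the reported interval (for counts, within 1.5 times) and 16 did not, of 61 for single gates 50 did and 11 did not, and of 309 YS to EB ratios of single members 290 did and 19 did not. Some of these values could hardly move. Leaving out cells of 1 library does not change the level of the other, and leaving out Scrublet doublets removed 3 EB and 2 YS cells. Among members past 2-fold, the ratios of Hoxd4 (0.908) and Hoxa4 (0.833) reversed without ungated cells, and the cause was not tested. The YS sum was 182.9 CPM with the UMI minimum at 20%, 272.0 as a mean of per-cell CPM, 215.5 with globin and mitochondrial genes left out of the totals, 253.8 without globin-rich cells and 174.2 without ungated cells. The YS to EB ratio was 3.43, 5.27, 3.94, 4.78 and 3.28 in the same order. Without ungated cells 15 members, in place of 21, were at least 2-fold higher in YS and 9, in place of 5, in EB, and with the UMI minimum at 20% 19 and 7. With gate minimums doubled, extraembryonic mesoderm-like cells were at 100.4 CPM and YS endothelial-like cells at 353.2. With cells of several gates left out, YS endothelial-like cells were at 370.9 CPM and Mesp1 cells at 84.9. Asking for 2 UMIs, Hoxb2 was found in 42.9% of EB cells with Hoxb1 and Hoxc6 in 32.1% of YS cells with Hoxc8. Gates left with under 10 cells gave no value: the Prdm1 Prdm14 and Tbx6 Dll1 Msgn1 cells in both gate alternatives, and YS myeloid-like and smooth muscle-like cells with cells of several gates left out. Leaving out globin-rich cells, ungated cells or the EB cells of 10 or more Hox genes was chosen after seeing the data. No paired analysis was possible because each group has 1 library. Members with few UMIs are limited by depth, as their intervals show.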
